A study of Mus musculus with 9 samples.

Results

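Genes of the proximal tubule were followed in sorts of podocytes, the epithelial cells that cover the glomerular capillaries, from diabetic and normal mice. The genes were chosen by name from known markers and functions of proximal tubule cells. Of 32 genes listed, 31 had a probe set with 1 gene symbol on the array, among 18193 genes measured in all. Ggt1, which encodes a brush border gamma-glutamyltransferase, had no such probe set and was not analysed here. The OVE26 group held 5 arrays from diabetic mice with the label genotype OVE-GFP on the FVB background, and the FVB group held 4 arrays from normal mice of that background with the label genotype wild type. OVE26 mice carry a transgene that leaves them diabetic from early in life. All mice were 3 to 4 months old, and each array is labelled with a mouse of its own. Mice with green fluorescent podocytes, made on FVB, had been crossed to OVE26. Per the labels' protocols, glomeruli were purified with magnetic beads from collagenase-digested kidneys and dissociated with trypsin, fluorescent cells were sorted, and their RNA was amplified before hybridisation. The FVB arrays are labelled wild type although the sort was on fluorescence. No source used here names the promoter that drives the fluorescent protein or the sex of the mice. Whether the numbered mice of a group were sorted on separate days is not given either, so p-values measure the spread between these arrays.

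The proximal tubule receives the glomerular filtrate and takes back most of its glucose, phosphate, amino acids, bicarbonate and protein. Megalin and cubilin on its brush border bind filtered proteins for endocytosis, sodium-coupled carriers draw solutes across the apical membrane, and anion and bicarbonate carriers on the basolateral side complete the transport. The cells burn fatty acids, make glucose and carry many enzymes of drug metabolism, and HNF4A is a transcription factor of their mature state. In mouse kidney several of these genes are known to differ between males and females.

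Sequences from RefSeq (GRCm38.p6) covered the promoters of 27 of the 32 genes, as 33 windows of 300 bases that run from 250 bases before to 50 bases after an annotated start. The 3 windows shown belong to genes on which the results turn. Aadat had the smallest p-value of the group comparison, Cyp2e1 had the widest range over the 9 arrays, and Slc13a3 came after Cyp2e1 by its shortfall on the array OVE26 2. Capitals mark a match on either strand to TATAAA, the letters searched for the TATA box, or to the HNF4 site CAAAGTCCA, and a window without capitals holds neither. The windows lie at chr8:60505874-60506173 (plus strand) for Aadat, chr7:140763569-140763868 (plus strand) for Cyp2e1 and chr2:165473148-165473447 (minus strand) for Slc13a3, each printed 5′ to 3′ on the strand of its gene.
Aadat: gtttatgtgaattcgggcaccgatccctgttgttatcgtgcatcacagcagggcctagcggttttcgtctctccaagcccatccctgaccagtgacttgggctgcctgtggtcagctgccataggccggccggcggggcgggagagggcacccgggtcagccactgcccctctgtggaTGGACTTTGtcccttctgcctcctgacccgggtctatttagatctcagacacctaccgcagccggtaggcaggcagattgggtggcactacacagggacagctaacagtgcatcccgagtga
Cyp2e1: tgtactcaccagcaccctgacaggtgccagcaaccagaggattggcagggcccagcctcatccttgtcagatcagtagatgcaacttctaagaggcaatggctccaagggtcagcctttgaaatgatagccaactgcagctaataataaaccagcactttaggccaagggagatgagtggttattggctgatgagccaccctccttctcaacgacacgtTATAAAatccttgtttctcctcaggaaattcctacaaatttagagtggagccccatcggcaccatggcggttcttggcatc
Slc13a3: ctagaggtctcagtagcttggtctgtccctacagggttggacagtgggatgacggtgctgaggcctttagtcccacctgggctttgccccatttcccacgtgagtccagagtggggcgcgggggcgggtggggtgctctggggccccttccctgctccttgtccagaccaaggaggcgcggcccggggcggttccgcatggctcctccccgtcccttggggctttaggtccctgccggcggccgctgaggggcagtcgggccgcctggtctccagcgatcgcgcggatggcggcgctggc

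The HNF4 site occurred in 1 of the 33 windows, that of Aadat, and in 0.475% of all 32851 promoter windows. The letters TATAAA occurred on either strand in 7 windows, of Acsm2, Acy3, Cyp2e1, Cyp2j5, Ggt1, Miox and Slc34a1, and in 13.6% of all windows. Relative to the start they lay on the gene strand at -28 for Acsm2, -30 for Acy3, -31 for Cyp2e1 and -40 for Miox. The match of Slc34a1 lay after the start, at 16, and those of Cyp2j5 (-128) and Ggt1 (-134) on the opposite strand. The motifs did not overlap in a printed window. Several other spellings of HNF1 and HNF4 sites were looked at before these were kept and are not given, so the matches are a description of letters in these windows.

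All values below are log2 intensities of the brightest probe set of a gene, and differences are OVE26 minus FVB on that scale. Because a probe set's brightness depends on its probes, levels of different genes are not compared. Signal of the 31 genes was not at the floor of these podocyte sorts: 28 of them lay above the 25th percentile of an array's gene values (3.83 on average) on each of the 9 arrays. The other genes were Ass1, below it on 8 arrays, and Cyp2e1 and Slc22a6, below it on OVE26 2. Of the podocyte markers, 19 of 19 measured were above the 40th percentile of mean intensity, and Nphs1, which encodes nephrin, averaged 11.40 ± 0.29 on the 5 OVE26 arrays and 11.90 ± 0.23 on the 4 FVB arrays (SD). In bulk sorts such as these, fewer proximal tubule cells and less RNA per cell cannot be told apart.

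The comparison asked whether proximal tubule genes differ between podocyte sorts of diabetic and normal mice. None of the 31 passed the threshold, an adjusted p under 0.05 by limma over all 18193 genes, of which 0.605% passed. At an unadjusted p under 0.05 there were 6 of the 31 (Aadat, Napsa, Spp2, Fxyd2, Cyp4b1 and Acy3), beside 15.1% of all genes. At an adjusted p under 0.1 there were 2 of the 31, Aadat and Napsa, beside 2.06% of all genes. Differences were positive in 16 and negative in 15 genes, from -1.41 to 1.48, with a median of 0.10 beside 0.01 over all genes. The genes varied widely within the groups. The median SD of the 31 genes within groups was 0.86, against 0.24 over all genes. Their differences had a median standard error of 0.49, against 0.16.

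**Figure D1:**
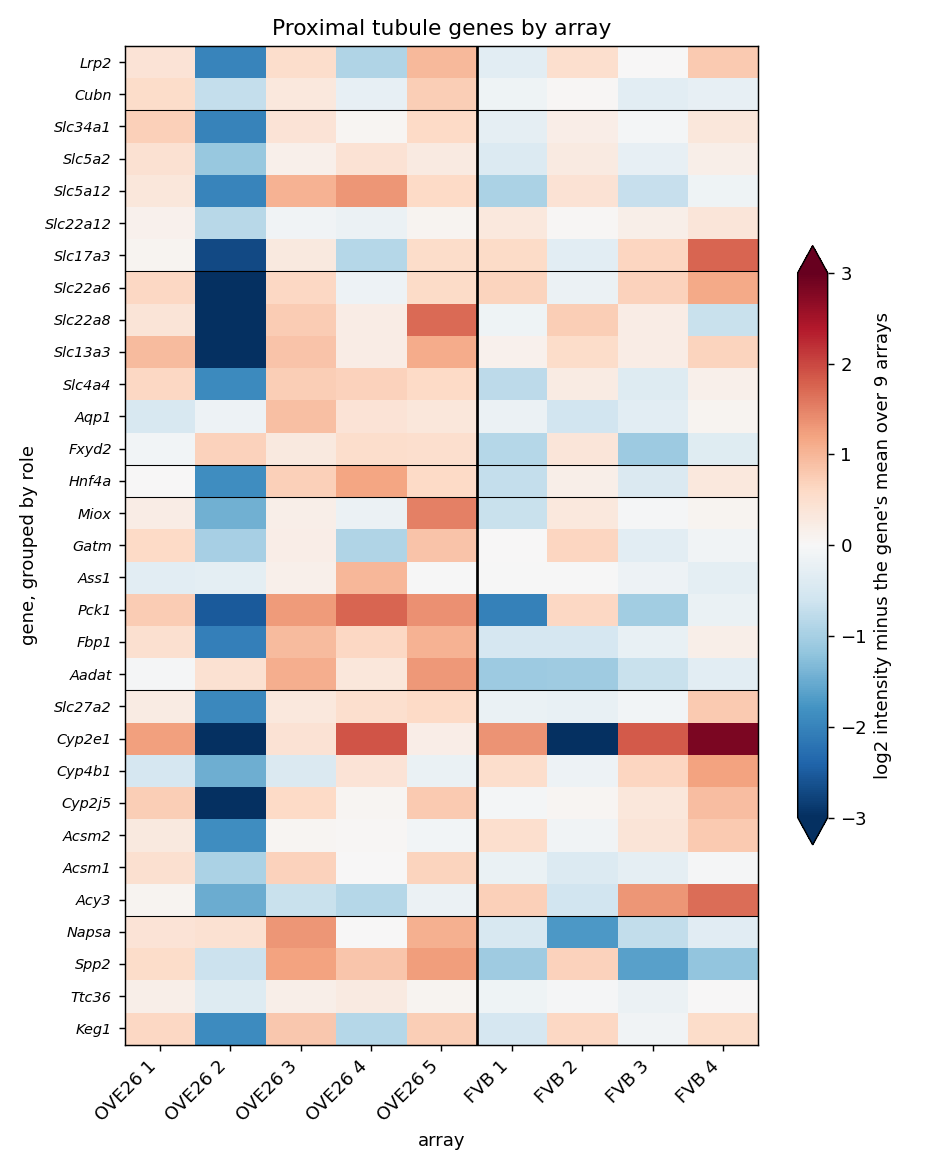
Heat map of 31 proximal tubule genes (rows, in blocks by role) on 9 arrays (columns, OVE26 to the left of the line and FVB to the right). Colour gives log2 intensity minus the gene's mean over the 9 arrays, and colours are capped at 3 in either direction. The column of OVE26 2 is blue in most rows, and it was the lowest of the 9 arrays in 25 of 31 genes.

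The array OVE26 2 stood apart. It was the lowest of the 9 arrays in 25 of 31 genes, while it was the lowest in 12.5% of all genes. In 24 of 31 genes it lay at least 2-fold below the mean of the other 4 OVE26 arrays, which held for 3.31% of all genes. The median shortfall was -1.93, beside 0.05 over all genes. The mean of the 31 genes, each centred over the 9 arrays, was 0.35, -1.71, 0.51, 0.25 and 0.65 on the OVE26 arrays, and -0.22, -0.10, -0.08 and 0.35 on the FVB arrays. Apart from OVE26 2, each OVE26 array lay above 3 of the 4 FVB arrays, and the groups overlapped. Without OVE26 2 the median difference of the 31 genes was 0.40, with 25 of 31 positive, while the median over all genes was 0.00. Again 0 of 31 passed the threshold by limma (0.742% of all genes passed), with 15 of 31 at an unadjusted p under 0.05 beside 16.2% of all genes. Leaving out the lowest array of most of these genes moves their differences upward in any case.

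**Figure D2:**
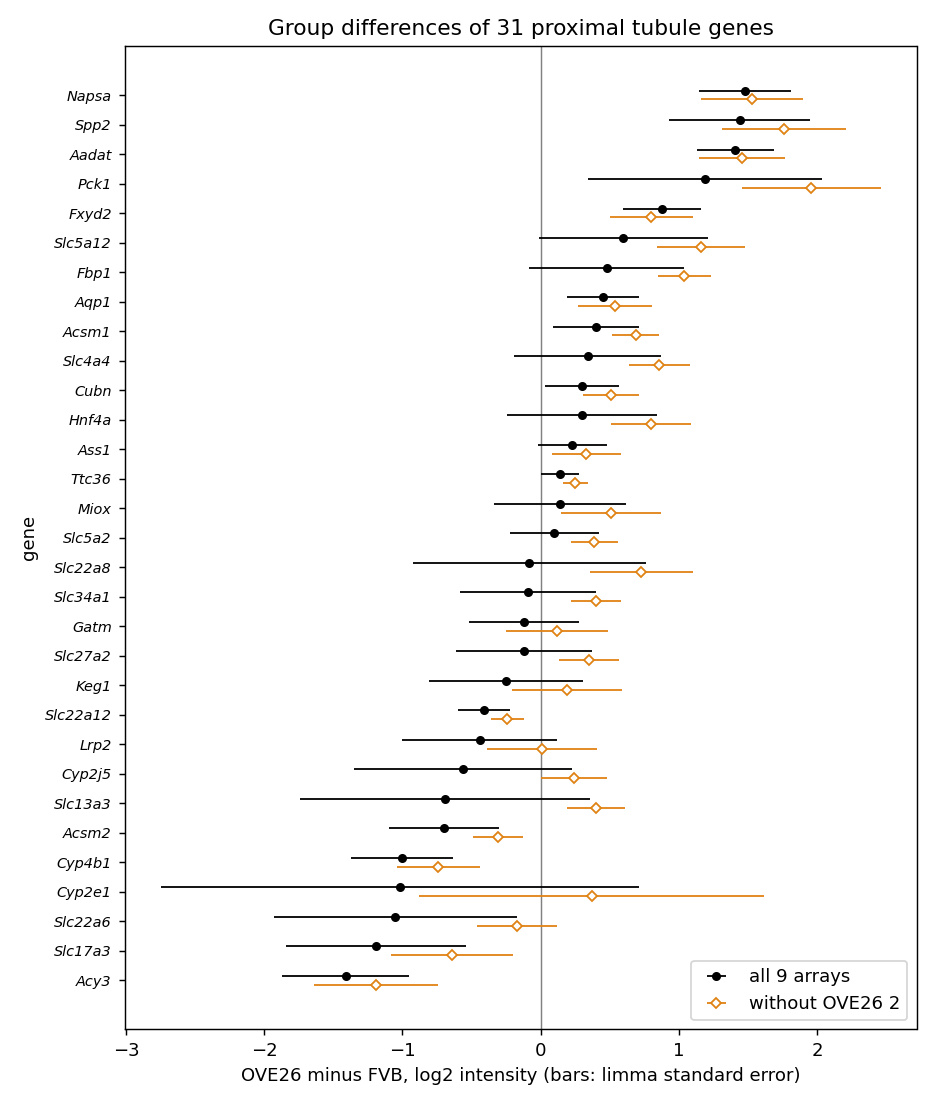
Differences of 31 proximal tubule genes, OVE26 minus FVB in log2 intensity, with limma standard errors as bars. Filled circles use all 9 arrays and open diamonds leave out OVE26 2. Without that array 25 of 31 differences were positive, against 16 of 31 with it.

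Of the endocytic receptors 2 of 2 were lowest on OVE26 2 by the probe sets used. Lrp2, which encodes megalin, was at 8.63, 6.24, 8.77, 7.34 and 9.20 on the OVE26 arrays, and at 7.91, 8.74, 8.24 and 9.01 on the FVB arrays. OVE26 2 and OVE26 4 were the lowest, and the other OVE26 arrays lay among or above the FVB arrays. The difference of -0.44 (SE 0.56, limma, adjusted p = 0.785) was 0.01 without OVE26 2. The other Lrp2 probe sets differed by -0.38 and by 0.13, and the one at 0.13 was below the 25th percentile on all 9 arrays. The one at -0.38 had 7.33 on OVE26 2, near its OVE26 mean of 7.59, so it showed little of the shortfall. Cubn, which encodes cubilin, differed by 0.30 (SE 0.27, limma, adjusted p = 0.672), and by 0.51 without OVE26 2.

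Among the apical carriers 5 of 5 were lowest on OVE26 2. Slc34a1, the sodium-phosphate cotransporter of the brush border, was at 8.36, 5.64, 8.05, 7.70 and 8.24 on the OVE26 arrays, and at 7.36, 7.83, 7.58 and 7.97 on the FVB arrays. The groups overlapped, and the difference was -0.09 (SE 0.49, limma, adjusted p = 0.962) or 0.40 without OVE26 2. Slc5a2, the glucose carrier SGLT2, was at 8.62, 7.03, 8.32, 8.60 and 8.44 on the OVE26 arrays, and at 7.74, 8.43, 7.91 and 8.34 on the FVB arrays. SGLT2 is the target of a class of diabetes drugs, and here its difference was 0.10 (SE 0.32, limma, adjusted p = 0.932). Slc5a12, a lactate carrier, differed by 0.60 (SE 0.61, limma, adjusted p = 0.715), and by 1.16 without OVE26 2 (adjusted p = 0.135). Slc17a3, an organic anion and phosphate carrier, differed by -1.19 (adjusted p = 0.433), and Slc22a12, the urate carrier URAT1, by -0.41 (adjusted p = 0.358). Without OVE26 2 these were -0.64 and -0.24. A dimmer Slc22a12 probe set differed by 0.09.

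The basolateral anion carriers had the deepest shortfalls of the transport genes on OVE26 2. Slc13a3, a sodium-dicarboxylate carrier, was at 10.29, 4.68, 10.20, 9.57 and 10.47 on the OVE26 arrays, and at 9.47, 9.89, 9.57 and 10.01 on the FVB arrays. On OVE26 2 it stood at -5.45 against the mean of the other OVE26 arrays, a 43.8-fold shortfall, while the FVB arrays had an SD of 0.26 (n = 4). A second Slc13a3 probe set had 2.58 on OVE26 2, with group means of 5.20 in OVE26 and 5.22 in FVB arrays. The drug and urate transporter genes Slc22a6 (OAT1) and Slc22a8 (OAT3) stood at -4.41 and -4.02 against the other OVE26 arrays on OVE26 2. Their group differences were -1.05 (SE 0.88, limma, adjusted p = 0.639) and -0.08 (SE 0.84, adjusted p = 0.982), which became -0.17 and 0.73 without that array. For Slc22a8 a second probe set, below the 25th percentile on all 9 arrays, differed by 0.56. Slc4a4, the sodium-bicarbonate cotransporter, stood at -2.57 against the other OVE26 arrays on OVE26 2. It differed by 0.34 (SE 0.53) with all arrays, far from the threshold, and by 0.86 (adjusted p = 0.112) without OVE26 2, when no OVE26 array overlapped the FVB arrays.

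Aqp1 and Fxyd2 did not share the shortfall. Aqp1, a water channel that endothelium also makes, was at 6.95, 7.28, 8.33, 7.85 and 7.77 on the OVE26 arrays, and at 7.25, 6.85, 7.12 and 7.52 on the FVB arrays (difference 0.45, SE 0.26, limma, adjusted p = 0.468). Fxyd2, the gamma subunit of the sodium pump, is made along the distal nephron too. Its values were 10.73, 11.50, 11.10, 11.34 and 11.32 on the OVE26 arrays, and 9.95, 11.16, 9.72 and 10.45 on the FVB arrays. OVE26 2 was its highest array, and FVB 2 lay among the OVE26 arrays. The difference was 0.88 (SE 0.28, limma, adjusted p = 0.176), and the other 3 Fxyd2 probe sets differed by 0.91, 0.91 and 1.33. With the mean of distal nephron markers as a covariate the difference was 0.05 (adjusted p = 0.970), in a fit that called 0 of all genes. That mean did not overlap between the groups, so the fit can hardly separate it from group. Without FVB 2 the Fxyd2 difference passed the threshold, at 1.16 (limma, adjusted p = 0.0322). In that fit 3 of the 31 genes passed beside 2.02% of all genes, 1.57% as higher and 0.451% as lower. FVB 2 was the highest FVB array for Fxyd2, so leaving it out widens the difference in any case.

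Hnf4a followed the transport genes. Its values were 7.98, 6.11, 8.70, 9.16 and 8.58 on the OVE26 arrays, and 7.26, 8.15, 7.55 and 8.29 on the FVB arrays. The difference was 0.30 (SE 0.54, limma, adjusted p = 0.863), and leaving out 1 array moved it between 0.04 without OVE26 4 and 0.80 without OVE26 2 (adjusted p = 0.229). All 4 Hnf4a probe sets had differences between 0.04 and 0.30.

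Of the 6 genes of carbohydrate, amino acid and creatine metabolism, 5 had a positive difference with all arrays and 6 without OVE26 2. Pck1, which commits oxaloacetate to glucose synthesis, was at 9.97, 6.70, 10.48, 10.96 and 10.59 on the OVE26 arrays, and at 7.19, 9.83, 8.17 and 9.0 on the FVB arrays. Every OVE26 array but OVE26 2 lay above the FVB arrays. The difference was 1.19 (SE 0.85, limma, adjusted p = 0.567), and 1.96 without OVE26 2 (adjusted p = 0.115). Fbp1, the fructose-bisphosphatase of the same pathway, was at 9.88, 7.35, 10.35, 10.01 and 10.43 on the OVE26 arrays, and at 8.88, 8.90, 9.16 and 9.57 on the FVB arrays. It had the same order of groups, with a difference of 0.48 (SE 0.56, limma, adjusted p = 0.762), or 1.04 without OVE26 2 (adjusted p = 0.0509).

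Aadat, an aminotransferase of the kynurenine and lysine pathways, came nearest to the threshold of all 31 genes. It was at 6.99, 7.49, 8.12, 7.36 and 8.32 on the OVE26 arrays, and at 5.93, 5.97, 6.35 and 6.71 on the FVB arrays. The groups did not overlap, and OVE26 2 lay within its group. The OVE26 mean was 2.67-fold that of FVB (difference 1.41, SE 0.28, limma, adjusted p = 0.0573). It passed without OVE26 1 (1.58, limma, adjusted p = 0.0471), where 0.467% of all genes passed. With the filter on dim genes it passed too (adjusted p = 0.0440), where 1.52% of the 10916 genes kept passed. The same held with the intensity trend (adjusted p = 0.0479, 0.984% of all genes passed) or array weights (1.47, adjusted p = 0.0354, 2.18% passed). Over its 19 alternatives the adjusted p of Aadat ran from 0.0354 to 0.417.

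Miox, which oxidises inositol, and Gatm, which makes the precursor of creatine, differed by 0.14 (adjusted p = 0.936) and -0.12 (adjusted p = 0.936). Ass1, argininosuccinate synthase, was dim and differed by 0.23 (adjusted p = 0.736).

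Of the 7 genes of fatty acid and drug metabolism, 6 had a negative difference with all arrays, with a median of -0.70, and 7 were lowest on OVE26 2. Without that array 4 of the 7 differences were positive, and the median was 0.24. Cyp2e1, a cytochrome P450 of ethanol and ketone oxidation, was at 9.39, 2.16, 8.59, 10.05 and 8.36 on the OVE26 arrays, and at 9.51, 4.41, 9.99 and 10.99 on the FVB arrays. It was low on OVE26 2 and on FVB 2, and its range of 8.82 over the 9 arrays was the widest of the 31 genes. The difference was -1.02 (SE 1.73, limma, adjusted p = 0.850). Acy3, an aminoacylase that acts on mercapturic acids, was at 8.13, 6.56, 7.38, 7.2 and 7.87 on the OVE26 arrays, and at 8.78, 7.47, 9.38 and 9.73 on the FVB arrays. FVB 2 lay among the OVE26 arrays, and the other FVB arrays lay above them. Acy3 had the most negative difference, -1.41 (SE 0.46, limma, adjusted p = 0.182), and passed as lower without FVB 2 (-1.87, adjusted p = 0.0338). FVB 2 was its lowest FVB array, so leaving it out widens the difference in any case. Cyp4b1, a P450 of fatty acid hydroxylation, differed by -1.0 (SE 0.37, limma, adjusted p = 0.232).

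Acsm2 and Acsm1, medium-chain acyl-CoA synthetases whose genes lie next to each other on chromosome 7, differed by -0.70 (adjusted p = 0.461) and 0.40 (adjusted p = 0.608). Whether probe sets separate these related genes was not tested. Without OVE26 2, Acsm1 stood above FVB on every remaining OVE26 array (0.69, adjusted p = 0.0999). Cyp2j5, an arachidonic acid epoxygenase, stood at -4.0 against the other OVE26 arrays on OVE26 2 and differed by -0.56 (adjusted p = 0.809). Slc27a2, a very-long-chain acyl-CoA synthetase, differed by -0.12 (adjusted p = 0.947).

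Napsa and Spp2 were the other genes with large positive differences. Napsa, which encodes the aspartic protease napsin A, was at 6.83, 6.88, 7.75, 6.44 and 7.49 on the OVE26 arrays, and at 5.94, 4.69, 5.68 and 6.09 on the FVB arrays. The groups did not overlap, the OVE26 mean was 2.78-fold that of FVB, and OVE26 2 lay within its group (difference 1.48, SE 0.33, limma, adjusted p = 0.0814). A dimmer Napsa probe set differed by 0.17 (adjusted p = 0.679 over all probe sets). Spp2, a secreted phosphoprotein, was at 7.92, 6.72, 8.57, 8.19 and 8.61 on the OVE26 arrays, and at 6.29, 8.05, 5.74 and 6.17 on the FVB arrays. FVB 2 lay among the OVE26 arrays, and the difference was 1.44 (SE 0.51, limma, adjusted p = 0.211), or 1.93 without FVB 2 (adjusted p = 0.0475). As FVB 2 was the highest FVB array for Spp2, leaving it out widens the difference in any case. Keg1, named as expressed in kidney, differed by -0.25 (adjusted p = 0.893), and Ttc36, a tetratricopeptide protein, by 0.14 (adjusted p = 0.715).

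**Figure D3:**
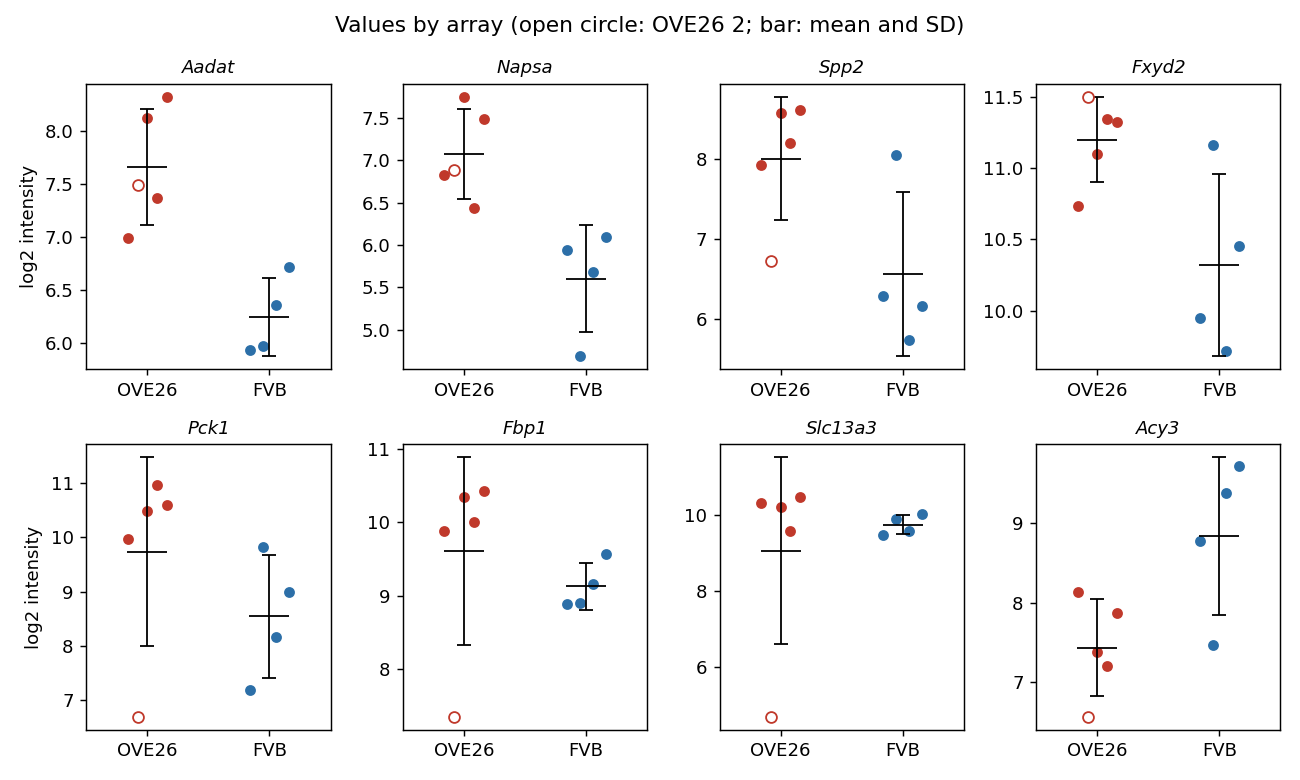
Log2 intensity of 8 genes on each array, OVE26 to the left and FVB to the right of each panel, with the mean and SD as bars and OVE26 2 as an open circle. For Aadat and Napsa no OVE26 array overlaps the FVB arrays, while in Pck1, Fbp1 and Slc13a3 OVE26 2 is the lowest of the 9 arrays.

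Arrays that did not overlap between groups were found in 2 of 31 genes, Aadat and Napsa, both higher in OVE26, where 6.26% of all genes did not overlap in either direction, 3.64% higher in OVE26 and 2.62% lower. Without OVE26 2 they were found in 7 of 31 genes, all higher in OVE26 (Slc4a4, Pck1, Fbp1, Aadat, Acsm1, Napsa and Ttc36), beside 5.33% of all genes higher and 3.94% lower. That array was singled out after the values were seen, and leaving it out raises the OVE26 mean of the genes that are low on it.

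The genes moved together across arrays to differing degrees. Pearson's r of a gene with the mean of the other 30, over 9 arrays, had a median of 0.82, and 16 of 31 genes were above 0.8. Over the 8 arrays without OVE26 2 the median was 0.62, and 7 genes were above 0.8. For 10477 named genes outside the 31, at or above the 40th percentile, r with the mean of the 31 had a median of 0.0 over 9 arrays. It was 0.04 over 8. Slc34a1 and Slc27a2 had 0.97 over 9 arrays and 0.80 and 0.83 over 8. Aadat and Napsa had 0.16 and 0.14 over 9 arrays but 0.91 and 0.81 over 8. Acsm2, Acy3 and Cyp4b1 had 0.78, 0.34 and 0.50 over 9 arrays and -0.28, -0.37 and -0.40 over 8. These values share the same arrays and amplifications, and are given as a description.

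Outside the 31, the genes most like their mean over 9 arrays, of 10477 named genes at or above the 40th percentile, were Rap2b (r = 0.994), Xylb (0.992), Slc17a1 (0.987), Acsm5 (0.985), Fmo1 (0.980), Glyat (0.979), Serhl (0.975) and Eci3 (0.975). Their r without OVE26 2 ran from 0.855 for Serhl to 0.969 for Rap2b, and 7 of the 8 lay at least 2-fold below the other OVE26 arrays on OVE26 2. Xylb, a xylulokinase, had 9.23, 5.89, 9.10, 8.82 and 9.33 on the OVE26 arrays, and 7.88, 8.21, 8.33 and 8.93 on the FVB arrays. The genes most opposite were Ptcd2 (r = -0.974), Zdhhc1 (-0.961), Zfp748 (-0.954) and Fam219aos (-0.948).

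Markers of other nephron and glomerular cells gave other values on OVE26 2. Among 26 markers of later nephron parts (loop of Henle, distal tubule, collecting duct) 0 were lowest on that array, and their median there was 1.09 above the other OVE26 arrays. Their mean centred value was 0.17, 1.39, 0.49, 0.24 and 0.26 on the OVE26 arrays, and -0.73, -0.02, -1.21 and -0.59 on the FVB arrays, so OVE26 2 was the highest array for these and the lowest for the proximal genes. Of these 26 genes 4 were higher in OVE26 and 0 lower by limma (0.473% of all genes were higher). With this mean as a covariate, 31 of 31 proximal genes had a positive difference, with a median of 1.22, and 0 passed by limma, as did 0 of all 18193 genes in that fit (5 of the 31 at an unadjusted p under 0.05, beside 9.29% of all genes). The covariate did not overlap between the groups and was highest on OVE26 2. The fit can therefore hardly separate it from group, and its differences are extrapolations that lean on that array. The part of other tubule cells in the group differences was not tested. Of 16 glomerular endothelial markers 1 was lowest on OVE26 2, with a median of -0.16 against the other OVE26 arrays, and of 19 podocyte markers 2 were, with a median of 0.10. Between the groups 17 of the 19 podocyte markers had a negative difference, beside 8620 of 18193 genes. Their median difference was -0.21, beside 0.01 over all genes, and 0 passed by limma. The cause of this was not tested.

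**Figure D4:**
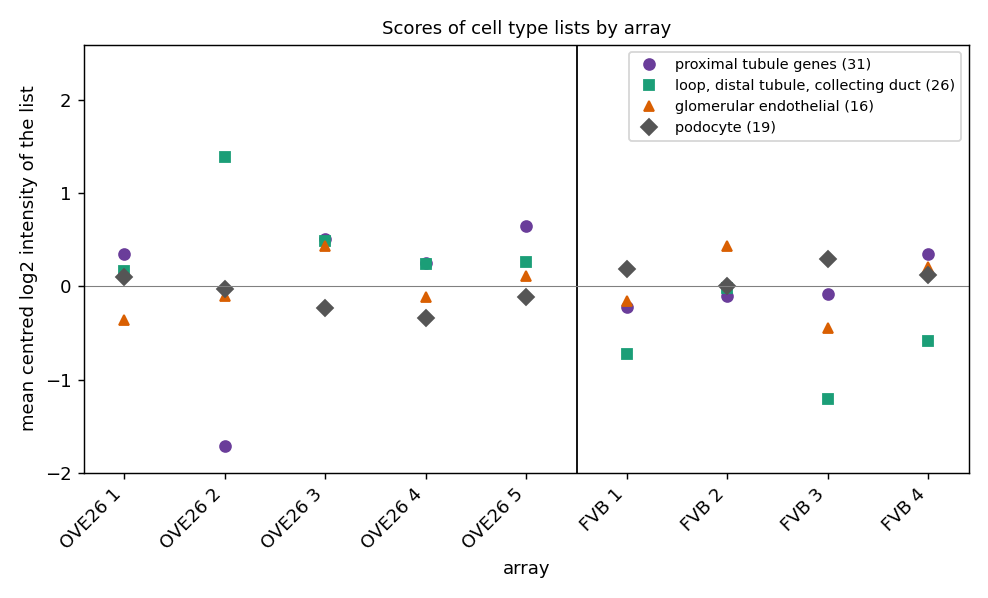
Mean centred log2 intensity of 4 gene lists on each array, OVE26 to the left of the line and FVB to the right. On OVE26 2 the proximal genes stand at -1.71 and the markers of later nephron parts at 1.39, while podocyte and endothelial markers stay near 0.

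Lists of tubule segments differ in what they share with the 31. The second-segment list holds only genes of the 31 (Slc22a6, Slc22a8, Slc13a3, Slc17a3 and Cyp2e1), so its values repeat theirs. The first-segment list shares Slc5a2, Slc5a12 and Slc34a1 with the 31, and the third-segment list shares none. On OVE26 2 the median against the other OVE26 arrays was -1.69 for 7 genes of the first segment, -4.41 for 5 genes of the second and -0.32 for 9 genes of the third, of which 6 were above the 40th percentile. The first-segment list had a median group difference of 0.60, or 0.94 without OVE26 2, the second-segment list -1.02, or 0.37 without it, and the third-segment list 0.55, or 0.61 without it. The difference between segments was not tested.

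Further proximal tubule genes were taken from a list of 87, of which 79 were measured. By limma 1 was higher, 0 were lower and 78 did not pass, where 0.473% of all genes were higher and 0.132% lower. At an unadjusted p under 0.05 there were 28 of the 79, beside 15.1% of all genes. The median difference of the 79 was 0.21, or 0.51 without OVE26 2. Slc7a12, an amino acid transporter known as female-biased in mouse kidney, rose, at 7.02, 7.50, 8.17, 5.05 and 7.34 on the OVE26 arrays against 1.62, 4.44, 2.16 and 2.21 on the FVB arrays (difference 4.41, adjusted p = 0.0273). On FVB 1, FVB 3 and FVB 4 it lay below the 25th percentile. The call was lost without any 1 of OVE26 1 (4.41, limma, adjusted p = 0.0526), OVE26 3 (4.12, with 0.0715) and OVE26 5 (4.33, with 0.0692). The same held without FVB 1 (4.08, with an adjusted p of 0.107), FVB 3 (4.26, with 0.0974) and FVB 4 (4.28, with 0.0954). With the distal covariate, where 0 of all genes passed, it was 2.89 (adjusted p = 0.448). The call was also lost in the 5 arrays of low Xist described further on (4.04, adjusted p = 0.0956). It held with Xist minus the mean of the Y-linked genes as a covariate (3.71, limma, adjusted p = 0.0249). It held too without OVE26 2 (4.29, with 0.0472), OVE26 4 (4.90, with 0.018) or FVB 2 (5.02, with 0.00625), which was its highest FVB array. Slc16a4, Dab2 and Slc1a1, with the next smallest p-values, differed by -1.11 (adjusted p = 0.0805), -0.57 (adjusted p = 0.0814) and 0.80 (adjusted p = 0.105). The other large positive differences were those of Cyp4a14 (3.53, adjusted p = 0.246), Gsta2 (2.54, adjusted p = 0.140) and Hpd (1.81, adjusted p = 0.299).

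Without OVE26 2, 7 of the 79 passed, all as higher, beside 0.588% of all genes that passed as higher and 0.154% as lower. Beside Slc7a12 these were Slc2a2, the basolateral glucose carrier GLUT2 (0.94, adjusted p = 0.0434), Slc5a10, a mannose and fructose carrier (1.26, adjusted p = 0.0282), and G6pc, the glucose-6-phosphatase that ends glucose synthesis (1.93, adjusted p = 0.0163). The others were Ddc, which makes dopamine (2.05, adjusted p = 0.0399), Hpd, of tyrosine breakdown (2.54, adjusted p = 0.0221), and the fatty acid hydroxylase gene Cyp4a14 (4.69, adjusted p = 0.0472). Cyp4a14, like Slc7a12, is known as female-biased in mouse kidney. G6pc was at 8.83, 5.07, 9.51, 9.48 and 8.95 on the OVE26 arrays, and at 6.76, 7.65, 7.11 and 7.54 on the FVB arrays, the same order as for Pck1 and Fbp1. OVE26 2 was the lowest array in 37 of the 79 genes. It stood at -4.13 for G6pc and -5.83 for Cyp4a14 against the other OVE26 arrays, but at 0.61 for Slc7a12. Where it is low, leaving it out raises the OVE26 mean and narrows its spread, so such calls are no separate support for a rise.

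Expression of Xist, made from the inactive X chromosome, and of Y-linked genes split the arrays. Xist lay above the mean of Eif2s3y, Kdm5d and Uty on OVE26 2, OVE26 3, OVE26 5 and FVB 2, and below it on OVE26 1, OVE26 4 and the other 3 FVB arrays. This split was not balanced between the groups. In a fit with group and Xist class, chosen after the values were seen, 0 of 31 genes passed for the class by limma (4 at an unadjusted p under 0.05, beside 7.6% of all genes, and 0.033% of all genes passed). For Cyp2e1 the arrays with Xist above minus those below differed by -4.27 (SE 1.32, adjusted p = 0.507), and by -3.18 (adjusted p = 0.413) without OVE26 2. Within the low-Xist arrays, 2 OVE26 and 3 FVB, Cyp2e1 differed by -0.45 (SE 0.46, adjusted p = 0.711), Acy3 by -1.63 (adjusted p = 0.189) and Spp2 by 1.99 (SE 0.21, adjusted p = 0.0693). In the same arrays Aadat differed by 0.85 (adjusted p = 0.274) and Napsa by 0.73 (adjusted p = 0.225), against 1.41 and 1.48 with all arrays, and Pck1 by 2.35 (adjusted p = 0.201). The group difference in one class against the other was tested as an interaction, which rests on the 1 FVB array with high Xist. It passed in 0 of 31 genes by limma, with 3 at an unadjusted p under 0.05 beside 5.14% of all genes.

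Several genes known as male-biased in mouse proximal tubule had wide ranges in the FVB group. Of 9 such genes measured, 8 had a negative difference, beside 8620 of all 18193 genes. Cyp7b1 had a positive one (0.59, limma, adjusted p = 0.623). It lay below the 25th percentile on 5 arrays, and FVB 2 was its highest FVB array, at 3.84. The FVB SD was narrower for Cyp7b1 (0.47) and Cyp4b1 (0.57). Kap, an androgen-regulated kidney protein, was at 9.13, 7.95, 8.03, 6.47 and 8.98 on the OVE26 arrays, and at 11.89, 5.82, 11.87 and 12.36 on the FVB arrays. Slco1a1, an organic anion transporter, was at 6.04, 3.13, 2.79, 2.64 and 2.99 on the OVE26 arrays, and at 8.96, 2.50, 8.61 and 9.31 on the FVB arrays. For both genes FVB 2 was the lowest array, and OVE26 1 and OVE26 4 lay below the FVB arrays of their Xist class. Their differences were -2.37 (adjusted p = 0.411) and -3.83 (adjusted p = 0.210) with all arrays. Without FVB 2 they passed as lower by limma, at -3.93 (adjusted p = 0.0106) and -5.44 (adjusted p = 0.00874). They were among 8 of the 79 genes that were then lower, beside 0.451% of all genes, and 3 were higher, beside 1.57%. Leaving out their lowest array raises the FVB mean and narrows the FVB spread, so these passes are no separate support for a difference. Within the arrays of low Xist alone the differences of Kap and Slco1a1 were -4.24 (adjusted p = 0.129) and -4.62 (adjusted p = 0.156). Slc7a13 and Slc22a30, transporters also known as male-biased, differed by -2.83 (adjusted p = 0.210) and -2.33 (adjusted p = 0.145) with all arrays. Of 3 genes known as female-biased (Slc7a12, Cyp4a14 and Slc22a19) 3 had a positive difference, beside 9573 of all 18193 genes, with a median of 3.53. Slc22a19 lay below the 25th percentile on 7 arrays. The part of sex in these differences was not tested.

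**Figure D5:**
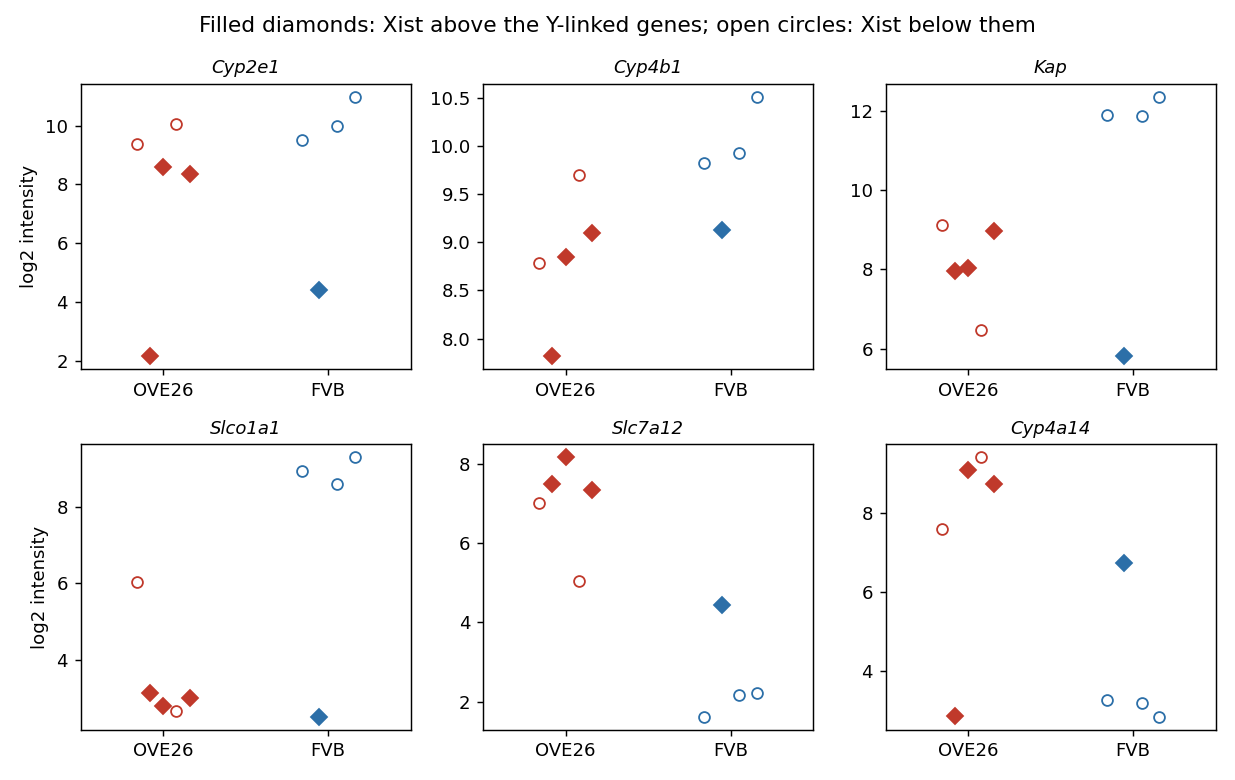
Log2 intensity of 6 proximal tubule genes on each array, OVE26 to the left and FVB to the right of each panel. Filled diamonds are arrays with Xist above the Y-linked genes and open circles those with Xist below. In Kap and Slco1a1 the 3 open FVB circles stand above every OVE26 array.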

How the data were processed

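The authors deposited probe set intensities of 9 arrays. Per the submitters' processing notes RMA and Partek were used, and neither versions nor settings are stated there. The intensity values were taken to be on a linear scale from their range, so log2 of the deposited values was computed here. Of 45101 probe sets, 64 controls were left out. In the platform annotation 34945 probe sets had 1 symbol, 932 had several and 9160 had none. The probe set with the highest mean over the 9 arrays stood for a gene, with no filter on dim genes, which left 18193 genes. The test was limma 3.58.1, run in R 4.3.3 (group as the only term, 9 arrays, 2-sided, Benjamini-Hochberg over all genes, threshold 0.05), and the fit was tested on simulated data. The number of arrays limits the precision.

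The 32 genes, the comparison lists and the tests were chosen with earlier results of these data known. Named were the genes listed, other proximal genes with the 4 highest, 4 lowest and 4 smallest-p differences, genes most like or opposite the mean of the 31, and checks. Genes called only without OVE26 2 were named after their values were seen. Alternatives covered dim genes, probe set choice, normalization, variance, array weights, mouse number as a block, sex and distal covariates and leaving out each array.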

Additional observations from a re-analysis of the deposited data

Results flagged for a closer look

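In a group of 4 or 5 arrays, the gap of an array to the nearest other array was divided by the range of the group. An array was singled out where this ratio exceeded Dixon's critical value, which chance does in about 1 of 20 groups. This gave 14 results in 64 groups examined, 13 of them for low values on OVE26 2, which share that array and so are not independent of each other. Of the transport genes these were Slc34a1 at 5.64, Slc5a2 at 7.03, Slc22a6 at 3.40, Slc13a3 at 4.68 and Slc4a4 at 7.61 on OVE26 2. Of the enzymes they were Pck1 at 6.70, Fbp1 at 7.35, Slc27a2 at 8.37, Cyp2e1 at 2.16, Cyp2j5 at 4.34 and Acsm2 at 9.33, and of the rest Ttc36 at 5.93. The mean centred value of the 31 genes was also far from its group on OVE26 2, at -1.71. In FVB arrays Slc27a2 was high on FVB 4, at 11.08.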

How the results depend on the processing

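Counts are given with the share of all genes called in the same direction. The count of the 31 genes called higher was 0 with the settings used in the report (0.473%). It was 1 of the 30 genes kept by the filter on dim genes (1.17% of the 10916 genes kept), 1 with the intensity trend (0.704%) and 2 with array weights (1.56%). At a threshold of 0.1 it was 2 (1.47%), and it ran from 0 to 2 over the fits that leave out 1 array, with 2 without FVB 2 (1.57%). The count called lower was 0 (0.132%), or 0 to 1 over those fits, with 1 without FVB 2 (0.451%). Of the other proximal genes 1 was called higher, against 3 with array weights (1.56%), 0 with the replicate block and 0 with the distal covariate (a fit that called 0 of all genes). It was 0 to 7 when an array was left out, with 7 without OVE26 2 (0.588%). The count called lower was 0, against 1 with the trend (0.28%) and 2 with weights (0.616%). It was 0 to 8 when an array was left out, with 8 without FVB 2 (0.451%). The median difference of the 31, 0.10, was 1.22 with the distal covariate and -0.22 to 0.40 when an array was left out, and the difference of their mean, 0.02, was 1.24 with that covariate and -0.14 to 0.45 when an array was left out.

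With the distal covariate 15 genes turned positive, none called: Lrp2 0.57, Slc34a1 1.22, Slc22a12 0.14, Slc17a3 0.69, Slc22a6 1.82, Slc22a8 2.02, Slc13a3 2.31, Gatm 0.21, Slc27a2 1.27, Cyp2e1 5.31, Cyp4b1 0.08, Cyp2j5 1.82, Acsm2 0.63, Acy3 0.01 and Keg1 0.63. With array weights Slc34a1 was 0.20, Slc22a8 0.56, Gatm 0.25, Slc27a2 0.05 and Keg1 0.15. With the sex covariate Slc34a1 was 0.03, Slc27a2 0.09 and Cyp2e1 0.53. On the arrays with low Xist alone, an alternative added after seeing the data, Slc34a1 was 0.39, Slc22a8 0.50, Slc13a3 0.25, Slc27a2 0.21 and Cyp2j5 0.00. Slc5a2 was 0.00 after centring on array medians, and Slc22a8 was 0.24 as the mean of its probe sets. Leaving out 1 array gave -0.73 to 0.01 for Lrp2, -0.28 to 0.40 for Slc34a1, -0.02 to 0.39 for Slc5a2, -0.51 to 0.73 for Slc22a8, -1.05 to 0.40 for Slc13a3, -0.22 to 0.51 for Miox, -0.34 to 0.12 for Gatm, -0.29 to 0.35 for Slc27a2, -2.46 to 0.37 for Cyp2e1, -0.82 to 0.24 for Cyp2j5 and -0.48 to 0.19 for Keg1. The cause of these changes was not tested. The distal covariate did not overlap between the groups, so the differences in its fit are extrapolations.

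Mouse numbers did not pair the samples: deviations of same-numbered arrays correlated at 0.129, 0.042, -0.212 and 0.008. With the number as a replicate block the median difference was -0.22, and Miox was -0.22. OVE26 5 has no FVB array of its number, so these differences are the same as those without OVE26 5. The block is therefore no separate check on them. By limma 0 of the 31 genes passed (9 at an unadjusted p under 0.05, beside 12.9% of all genes). Of all genes 19 passed, against 110, in a fit whose added terms leave fewer degrees of freedom.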
